A study of Mus musculus with 2 samples.

Results

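The replication of DNA in the cells of acutely injured muscle was followed through 35 genes of the replication machinery, listed by symbol and all found once among the 32285 genes of the count tables. The data are single-cell RNA libraries of the quadriceps muscle of wild-type (WT) male C57BL/6J mice, 14 weeks old, injured by an intramuscular injection of 1.2% (w/v) BaCl2, a salt that kills muscle fibers and spares the satellite cells that rebuild them. One library was made from mononuclear cells at day 1 and one at day 3 after injury, each pooled from 5 mice, and uninjured or dystrophic muscle was not analysed here. The cells were sorted by light scatter as single cells, frozen and thawed before they were loaded, so that muscle fibers are not among them. With 1 library per day there are no replicates and no test is given. The level of a gene is its number of UMIs (unique molecular identifiers, each 1 captured mRNA molecule) per 1000000 UMIs, or CPM, summed over the cells of a type on a day, and the intervals in parentheses are exact 95% confidence intervals (CI) that cover counting error only, not the spread between mice or libraries. A gene is said to have risen or fallen where its level differed at least 2-fold between the days.

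DNA replication starts when a ring of MCM proteins, the replicative helicase, is loaded onto origins by the origin recognition complex, *Cdc6* and *Cdt1*, and is switched on together with *Cdc45* and the GINS complex. Polymerases, a sliding clamp and its loader then copy both strands, enzymes of nucleotide metabolism supply the building blocks, and chromatin is rebuilt behind the fork. Most of these genes are transcribed as cells pass from G1 into S phase, when E2F transcription factors are released from the retinoblastoma protein and cyclin E is made, and in resting cells they are kept low. In regenerating muscle, satellite cells and fibroblasts are known to divide in the days after injury, and macrophages arise both from incoming monocytes and by division within the tissue.

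The library of day 1 held 74852240 UMIs and that of day 3 held 102565783, and the cells kept, 6735 and 4627, had medians of 9389 and 14548 UMIs. The lists of possible barcodes differed in length (737280 and 6794880), although the labels name the same kit for both, so that the chemistry of the libraries may differ and cannot be told apart from the day. No barcode of a kept cell was shared between the libraries. More cells of day 3 (1804, or 27.2%) than of day 1 (277, or 3.76%) were left out for a mitochondrial share above 7.5%. Cells were named from marker genes of their clusters, hence the ending "-like", after clustering without the markers and without the replication genes. There were 2660 macrophage-like cells on day 1 and 2405 on day 3, with 802 and 389 monocyte-like, 443 and 461 dendritic-like, 663 and 842 stromal-like and 6 and 214 myogenic-like cells, and 2076 and 254 neutrophil-like cells served as the background, since mature neutrophils no longer divide. All 12 macrophage markers had UMIs in macrophage-like cells on both days and summed to 14364 and 21656 CPM, against 7293 and 6819 CPM in dendritic-like and 4369 and 3230.0 CPM in monocyte-like cells, which thus carried part of the same signature. The 12 dendritic markers summed to 580 and 535 CPM in dendritic-like cells and to 3.80 and 6.12 CPM in macrophage-like cells. The macrophage-like cells of day 1 came mostly from clusters led by *Ccl24* and *Serpinb2* (1554 cells) and by *Cd163* and *Ppbp* (1035 cells), whereas those of day 3 came from clusters led by *Fcrls* and *Cx3cr1* (1027 cells), by *Gpnmb* and *Syngr1* (1020 cells) and by *Ifit2* and *Rsad2* (342 cells). The stromal-like cells likewise came from a cluster led by *Cxcl5* and *Il1rl1* on day 1 (635 cells) and from one led by *Sfrp2* and *Aspn* on day 3 (835 cells), so that a change between the days within a type is also a change of cluster. The *Ccl24* and *Serpinb2*-led cluster had no macrophage marker among its 10 leading genes, and in 2 alternatives the clusters led by its genes took other names: with log-normalization the cluster led by *Serpinb2* (1518 cells of day 1) took the name monocyte-like, and with the other call of cells the cluster led by Il1a and *Serpinb2* (1299 cells of day 1) took the name neutrophil-like. The 28 cells of the *Sfrp2* and *Aspn*-led cluster on day 1 were shallower, with a median of 5567.5 UMIs, and held the 35 genes at 516 CPM (CI 431 to 613).

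The replication genes were low in every immune cell type on day 1, and by day 3 their summed level was several times higher in macrophage-like and dendritic-like cells. In macrophage-like cells the 35 genes together rose from 266 (CI 261 to 272) to 1418 (CI 1406 to 1429.6) CPM, or 5.33-fold. Dendritic-like cells went from 281 (CI 267 to 295) to 1243 (CI 1213 to 1273) CPM, or 4.42-fold. Monocyte-like cells remained low and went from 218 (CI 208 to 228) to 323 (CI 305 to 343) CPM. Stromal-like cells differed from all 3 in that they were already high on day 1, at 1009.7 (CI 995 to 1024) CPM, and were little higher on day 3, at 1268 (CI 1253 to 1282) CPM, or 1.26-fold. Myogenic-like cells had the highest summed level of the named types, 3676 (CI 3638 to 3715) CPM on day 3, and the 6 cells of this type on day 1, too few to describe the type, held 3870.0 (CI 3605 to 4149.6) CPM.

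**Figure D1:**
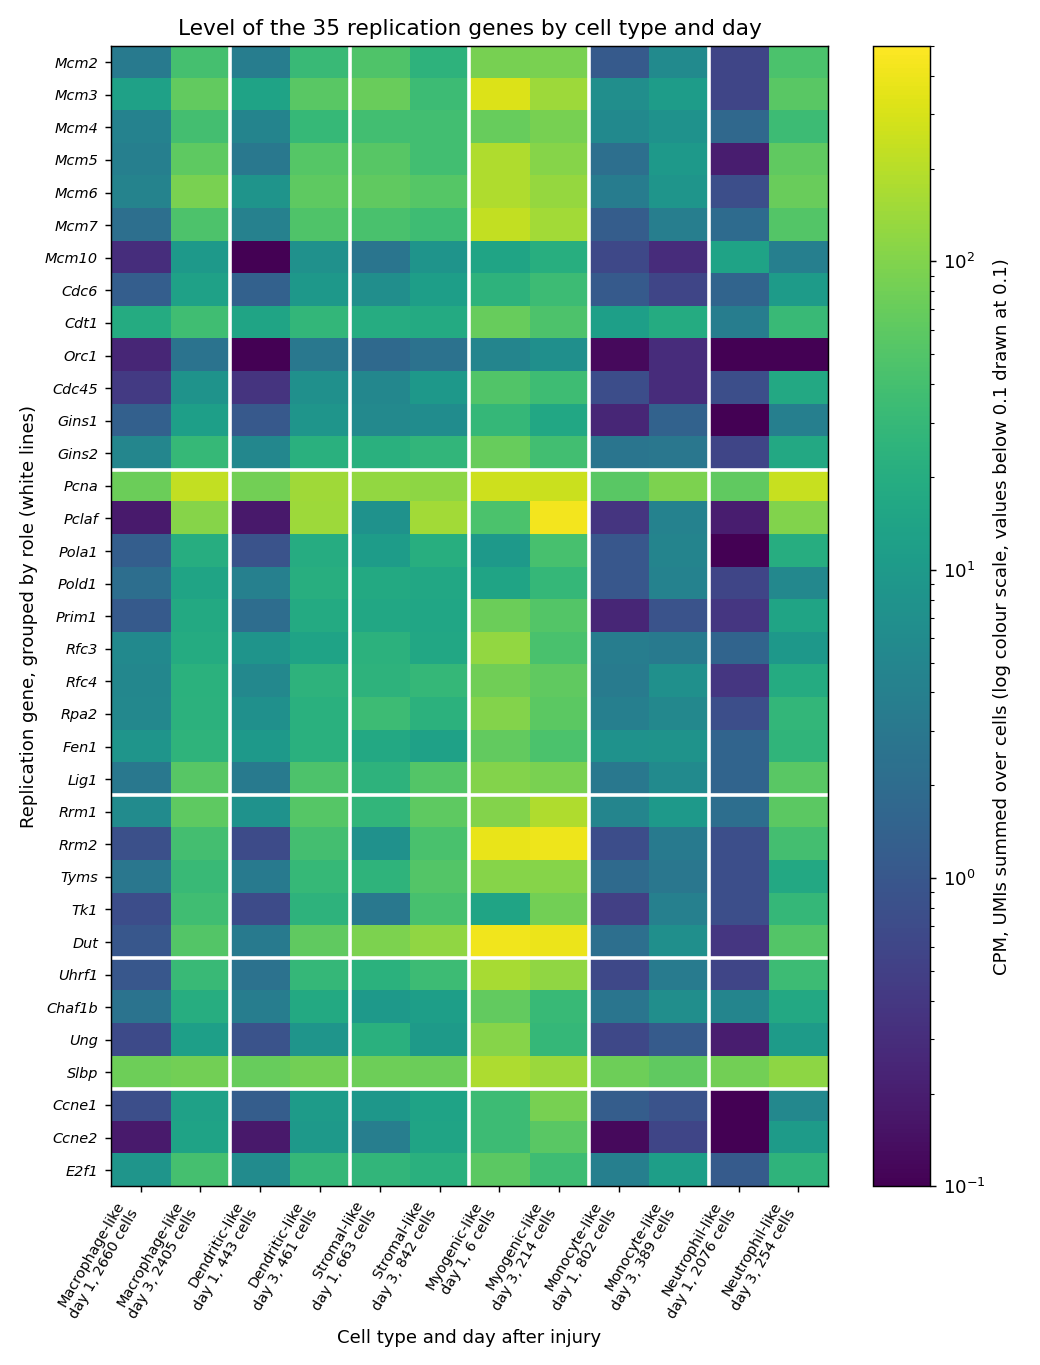
Level of each of the 35 genes (rows, grouped by role) in each cell type and day (columns), as CPM on a logarithmic colour scale. The columns of macrophage-like and dendritic-like cells turn from dark on day 1 to bright on day 3, those of stromal-like cells are bright on both days for most genes, with Pclaf, Tk1 and Rrm2 brighter on day 3, and Slbp is bright in every column.

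The neutrophil-like cells, which should lack these transcripts, went from 191 (CI 179 to 203) to 1345 (CI 1263 to 1430.3) CPM, or 639 CPM on day 3 as a mean over cells, so that the background of day 3 needs to be read by depth. On day 3 the 23 neutrophil-like cells with at least 3000 UMIs held 79.4% of the replication UMIs of the type and 2198 CPM, and in them the summed level of the 10 neutrophil markers (2369.7 CPM) was below that of the 12 macrophage markers (9082 CPM). The other 231 cells, with neutrophil markers at 52185 CPM, had replication genes at 538 CPM (CI 467 to 616). RNA free in the suspension, read from barcodes with at most 100 UMIs, held the 35 genes at 452 CPM on day 1 and 1213 CPM on day 3. Its share of the UMIs, estimated from collagen genes and *Dcn* in macrophage-like cells, was 1.97% on day 1 and 1.70% on day 3, and subtracting it left 262 and 1422 CPM. By the same estimate free RNA made up 36.7% of the UMIs of neutrophil-like cells on day 3. Subtracting it left 1421 CPM, beside 1345 CPM before. The estimate counts all collagen and *Dcn* RNA of the group as free RNA, also that of any stromal or mixed cells in it. For stromal-like and myogenic-like cells *S100a8* and *S100a9* were used in place of these genes. The stromal markers were at 3933 CPM in the 23 deep cells and at 556 CPM in the other 231.

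Whether a level comes from a few cells with many of the 35 genes or is spread thinly over all cells was read from the number of these genes found in each cell, counted after each cell was thinned at random to 3000 UMIs, since deeper cells show more genes. The share of macrophage-like cells with UMIs of at least 5 of the genes was 0.155% (4 of 2583 cells, CI 0.0422 to 0.396) on day 1 and 20.8% (493 of 2369 cells, CI 19.2 to 22.5) on day 3. In dendritic-like cells the share went from 0 of 432 cells, which by a floor of 3 counts allows a share of up to 0.694%, to 17.2% (78 of 453 cells, CI 13.9 to 21.02). With each cell named by its own highest marker score the share of day 1 was 6.71%, and with log-normalization that of day 3 was 7.87%. Stromal-like cells of day 1 were at 16.3% (106 of 650 cells, CI 13.5 to 19.4). Those of day 3 were at 21.5% (173 of 805 cells, CI 18.7 to 24.5), with intervals that overlap. Without thinning the order was the other way, 81.0% on day 1 and 75.7% on day 3. Thinned to 1000 UMIs and counted at 3 or more genes, stromal-like cells were at 8.45% (CI 6.44 to 10.8) on day 1. Their day 3 share by that setting was 14.5% (CI 12.2 to 17.1), with no overlap. In monocyte-like cells the share with at least 5 genes at 3000 UMIs was 0 of 750 cells on day 1, which by the same floor allows a share of up to 0.4%. On day 3 it was 1 of 377 cells (0.265%, CI 0.00672 to 1.47). The myogenic-like cells stood apart, with 86.4% (185 of 214 cells, CI 81.1 to 90.7) on day 3. Of the neutrophil-like cells deep enough to thin, 0 of 294 on day 1 and 12 of 23 on day 3 had at least 5 of the genes, the 23 being those with low neutrophil markers.

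**Figure D2:**
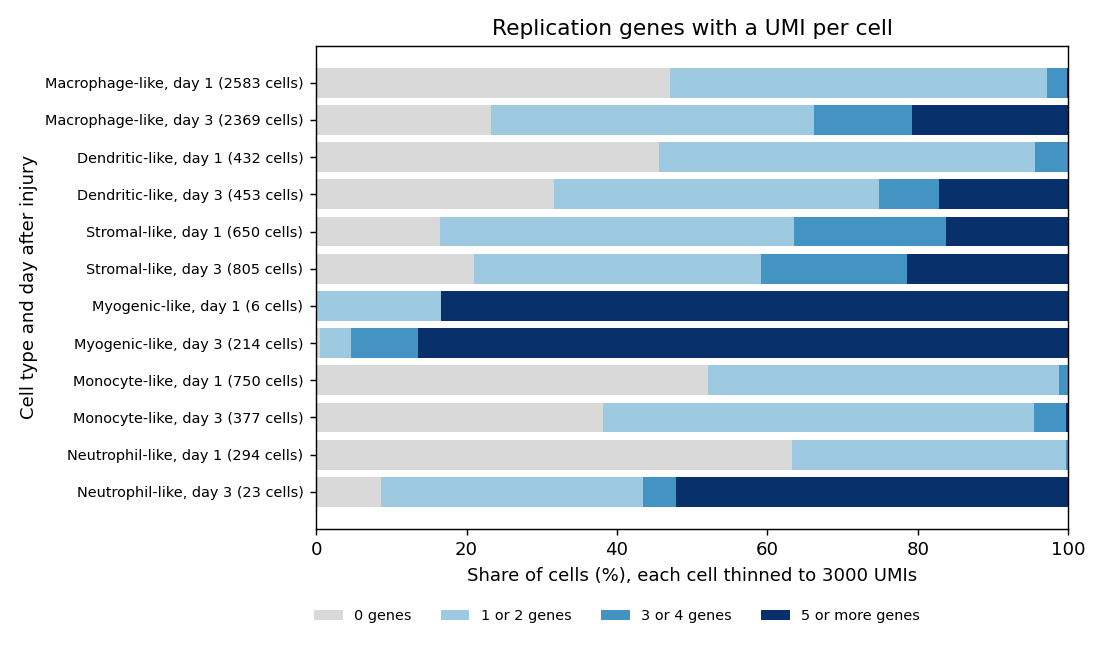
Share of cells (percent, after thinning to 3000 UMIs) with UMIs of 0, 1 or 2, 3 or 4, and 5 or more of the 35 genes, by cell type and day. The dark segment of 5 or more genes is 20.8% in macrophage-like cells of day 3 and 86.4% in myogenic-like cells of day 3; the bar of neutrophil-like cells on day 3 rests on 23 cells.

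Within macrophage-like cells of day 3 the genes were spread unevenly: 23.3% of the cells had none of the 35, 42.9% had 1 or 2, and the highest number in a cell was 20. Of the cells counted, 216 of 2369 lay at 4 or 5 genes, next to the limit, so that the group above it is set by a limit on a score. Whether these cells form a type of their own was not tested. The main clustering barred the cell-cycle genes and regressed out a cell-cycle score. With log-normalization a macrophage-like cluster was led by *Mki67*, *Stmn1* and *Top2a* (577 cells of day 3 and 4 of day 1). With cell-cycle genes kept a macrophage-like cluster was led by *Stmn1*, *Mki67* and *Top2a* (409 cells of day 3 and 2 of day 1). Without thinning the shares were 8.08% on day 1 and 57.1% on day 3 in macrophage-like cells (median depths of 11581.5 and 15358 UMIs), against 0.0482% and 7.09% in neutrophil-like cells (2154.5 and 1620.5 UMIs). Because few neutrophil-like cells reached 3000 UMIs, all cells were also thinned to 1000 UMIs and counted at 3 or more genes, a setting chosen after the data were seen. At that depth the share was 14.1% (CI 12.8 to 15.6) in macrophage-like, 11.7% (CI 8.92 to 15.01) in dendritic-like, 14.5% (CI 12.2 to 17.1) in stromal-like and 53.7% (CI 46.8 to 60.6) in myogenic-like cells of day 3, above the 4.72% (CI 2.46 to 8.11) of neutrophil-like cells. Monocyte-like cells of day 3, at 0.514% (CI 0.0623 to 1.84), were below that share of neutrophil-like cells. The neutrophil-like share includes the 23 deep cells in which the macrophage markers summed above the neutrophil markers, and their part in it was not tested.

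In macrophage-like cells 33 of the 35 genes were at least 2-fold higher on day 3 and none was 2-fold lower, where 31.6% of the 12675 genes with at least 20 UMIs were 2-fold higher and 5.7% 2-fold lower. The median log2 ratio of day 3 over day 1 was 3.44 over the 35 genes and 0.52 over all 12675. The 2 genes short of the limit were *Cdt1*, a loader of the helicase, which went from 19.0 to 36.8 CPM, and *Slbp*, the protein that binds the stem-loop of histone mRNA, which went from 76.8 to 80.7 CPM. *Slbp* was thus near the same level on both days, with a log2 ratio of 0.07 and an interval that holds 0.

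Among the genes of the origin and the helicase, all 6 MCM subunits rose in macrophage-like cells. *Mcm2* went from 3.36 to 40.0 CPM, *Mcm3* from 13.2 to 65.5 CPM and *Mcm4* from 4.32 to 39.1 CPM. *Mcm5* went from 3.89 to 61.2 CPM, *Mcm6* from 4.54 to 89.9 CPM and *Mcm7* from 2.25 to 45.9 CPM, and these 3 had log2 ratios of 3.97 (CI 3.72 to 4.25), 4.30 (CI 4.07 to 4.56) and 4.34 (CI 4.01 to 4.71). The subunits of the same ring did not rise alike, since the interval of *Mcm3*, with a log2 ratio of 2.31 (CI 2.16 to 2.46), lay below those of the other 5. Of the loading factors, *Cdc6* went from 1.27 to 13.0 CPM and *Orc1*, the largest subunit of the origin recognition complex, from 0.247 to 2.57 CPM. The partners that switch the helicase on rose as well: *Cdc45* from 0.432 to 7.86 CPM, *Gins1* from 1.36 to 12.2 CPM, *Gins2* from 4.97 to 29.6 CPM and *Mcm10*, which helps to start the fork, from 0.309 to 10.0 CPM.

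Of the genes that act at the fork, the highest ratio was that of *Pclaf*, which binds the sliding clamp, with 6 UMIs on day 1 and 4292 on day 3, or 0.185 to 105 CPM. *Pcna*, the clamp itself, rose less, from 72.7 to 226 CPM, a log2 ratio of 1.64 (CI 1.57 to 1.71), and was at 63.5 CPM in neutrophil-like cells of day 1. The catalytic subunits of polymerase alpha and of primase rose together, *Pola1* from 1.27 to 20.4 CPM and *Prim1* from 1.11 to 17.4 CPM, with log2 ratios of 3.99 (CI 3.56 to 4.50) and 3.95 (CI 3.48 to 4.49). *Pold1*, the catalytic subunit of polymerase delta, went from 2.19 to 14.7 CPM. *Lig1*, the ligase that joins the fragments of the lagging strand, went from 3.06 to 54.9 CPM, whereas *Fen1*, the nuclease that trims these fragments, went from 8.55 to 25.6 CPM. The lowest ratios of this group, between 1.58 and 2.17, were those of *Fen1*, *Pcna*, the clamp loader subunits *Rfc3* and *Rfc4* and the single-strand binding subunit *Rpa2*, which had from 5.09 to 72.7 CPM on day 1.

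The 5 genes of nucleotide supply had the highest summed ratio of the role groups in macrophage-like cells, from 11.5 to 221 CPM, or 19.2-fold. *Rrm1* and *Rrm2*, the subunits of ribonucleotide reductase, went from 6.02 to 61.3 CPM and from 0.802 to 39.7 CPM. *Tyms*, thymidylate synthase, went from 2.93 to 32.0 CPM, *Tk1*, the thymidine kinase of the salvage pathway, from 0.741 to 37.0 CPM, and *Dut*, which removes dUTP, from 1.02 to 50.9 CPM. The log2 ratios of *Rrm2*, *Tk1* and *Dut*, between 5.60 and 5.62, were higher than those of *Rrm1* (3.35 (CI 3.14 to 3.57)) and *Tyms* (3.44 (CI 3.15 to 3.77)), with no overlap of the intervals. In the chromatin and repair group *Uhrf1*, which keeps DNA methylation at the fork, went from 1.02 to 31.7 CPM, *Chaf1b*, a subunit of the chromatin assembly factor, from 2.53 to 20.4 CPM, and *Ung*, which removes uracil from DNA, from 0.679 to 12.2 CPM. The genes that start S phase also rose: the cyclins E *Ccne1* and *Ccne2* from 0.772 to 13.0 CPM and from 0.185 to 14.1 CPM, and the transcription factor *E2f1* from 8.39 to 41.2 CPM.

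Since most members moved together in macrophage-like cells, their promoters were read for the letters that E2F factors are known to bind. RefSeq (GRCm38.p6) gave promoters, 250 bases before to 50 after the start, for 31 of the 35 genes, 36 starts in all, and none for *Mcm4*, *Gins1*, *Gins2* and *Ccne2*. The E2F letters searched were the run TTCCCGC and the run TTCGCGC, then the runs TTGCCGC and also the run TTGGCGC, on both strands, with overlapping matches counted as 1 stretch. They stood in 23 of the 36 promoters (63.9%) and in 9.57% of all 32851 promoters, and 2 or more stretches stood in 10 of 36 (27.8%) against 1.1%. CCAAT stood in 20 of the 36 (55.6%) against 37.4% of all, and TTTGAA, a part of the cell cycle homology region, in 3 of the 36 (8.33%) against 17.9%. A match is a run of letters and not a measured binding site, and its relation to the ratios was not tested. No E2F letters were found for *Slbp*, at near the same level on both days. The other genes without them were *Dut*, *Tk1*, *Ccne1*, *E2f1*, *Cdc45*, *Mcm2*, *Mcm10*, *Pcna*, *Tyms* and *Ung*, which rose. The promoters with the most stretches are shown, with the E2F letters in capitals, since they show how these letters repeat around the start. They are *Pola1* (chrX:93632106-93632405, minus strand) with 4, *Mcm6* (chr1:128359656-128359955, minus strand) with 3, and *Cdt1* (chr8:122567765-122568064, plus strand) and *Chaf1b* (chr16:93883651-93883950, plus strand) with 2 each, the first by symbol of the 8 promoters with 2.
Pola1: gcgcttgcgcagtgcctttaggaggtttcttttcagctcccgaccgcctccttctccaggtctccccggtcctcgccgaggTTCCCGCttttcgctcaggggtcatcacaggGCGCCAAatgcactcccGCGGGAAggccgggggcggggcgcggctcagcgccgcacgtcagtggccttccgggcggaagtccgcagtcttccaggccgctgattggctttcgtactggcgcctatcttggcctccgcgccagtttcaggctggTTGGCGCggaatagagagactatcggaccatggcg
Mcm6: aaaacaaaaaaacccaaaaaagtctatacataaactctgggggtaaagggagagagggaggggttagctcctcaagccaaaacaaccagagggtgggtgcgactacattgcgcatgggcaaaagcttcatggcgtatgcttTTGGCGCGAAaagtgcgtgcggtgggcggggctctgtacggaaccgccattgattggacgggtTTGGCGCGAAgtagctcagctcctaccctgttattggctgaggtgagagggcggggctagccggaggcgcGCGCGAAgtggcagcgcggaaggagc
Cdt1: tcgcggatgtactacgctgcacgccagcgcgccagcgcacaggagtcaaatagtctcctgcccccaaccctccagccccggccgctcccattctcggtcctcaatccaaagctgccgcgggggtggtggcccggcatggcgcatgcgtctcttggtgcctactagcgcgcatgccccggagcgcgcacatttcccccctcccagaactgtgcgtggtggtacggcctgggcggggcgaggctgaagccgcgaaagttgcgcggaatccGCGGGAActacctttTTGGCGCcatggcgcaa
Chaf1b: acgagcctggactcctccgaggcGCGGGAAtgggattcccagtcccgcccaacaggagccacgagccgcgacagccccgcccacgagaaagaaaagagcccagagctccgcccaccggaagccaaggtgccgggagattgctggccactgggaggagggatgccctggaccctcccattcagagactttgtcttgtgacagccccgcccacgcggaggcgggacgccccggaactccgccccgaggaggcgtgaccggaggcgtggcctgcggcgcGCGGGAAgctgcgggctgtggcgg
The 4 genes had log2 ratios from 0.95 for *Cdt1* to 4.30 for *Mcm6* in macrophage-like cells.

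By cluster, the summed level in macrophage-like cells of day 1 was 243 CPM (CI 236 to 249.9) in the *Ccl24* and *Serpinb2*-led cluster and 296 CPM (CI 287 to 306) in the *Cd163* and *Ppbp*-led cluster. On day 3 it was 879 CPM (CI 849 to 909) in the *Ifit2* and *Rsad2*-led cluster, 1387 CPM (CI 1371 to 1402) in the *Gpnmb* and *Syngr1*-led cluster and 1618 CPM (CI 1597 to 1638) in the *Fcrls* and *Cx3cr1*-led cluster. Each cluster of day 3 was thus above each of day 1, including the 42 cells of the *Fcrls* and *Cx3cr1*-led cluster on day 1, which held 339 CPM (CI 284 to 400.02). The share of cells with at least 5 of the genes was 10.4% (CI 7.32 to 14.1) in the *Ifit2* and *Rsad2*-led cluster, below the 21.1% (CI 18.6 to 23.8) of the *Gpnmb* and *Syngr1*-led and the 24.2% (CI 21.5 to 26.9) of the *Fcrls* and *Cx3cr1*-led cluster. *Pclaf* followed the same division, with 35.3 CPM in the first and 119.6 and 102 CPM in the others, whereas *Slbp* was at 77.5, 70.01 and 98.3 CPM. The *Ifit2* and *Rsad2*-led cluster, led by genes of the interferon response, had monocyte markers nearly as raised as macrophage markers (scores of 1.45 and 1.80), and without it the summed level of macrophage-like cells of day 3 was 1474 CPM.

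**Figure D3:**
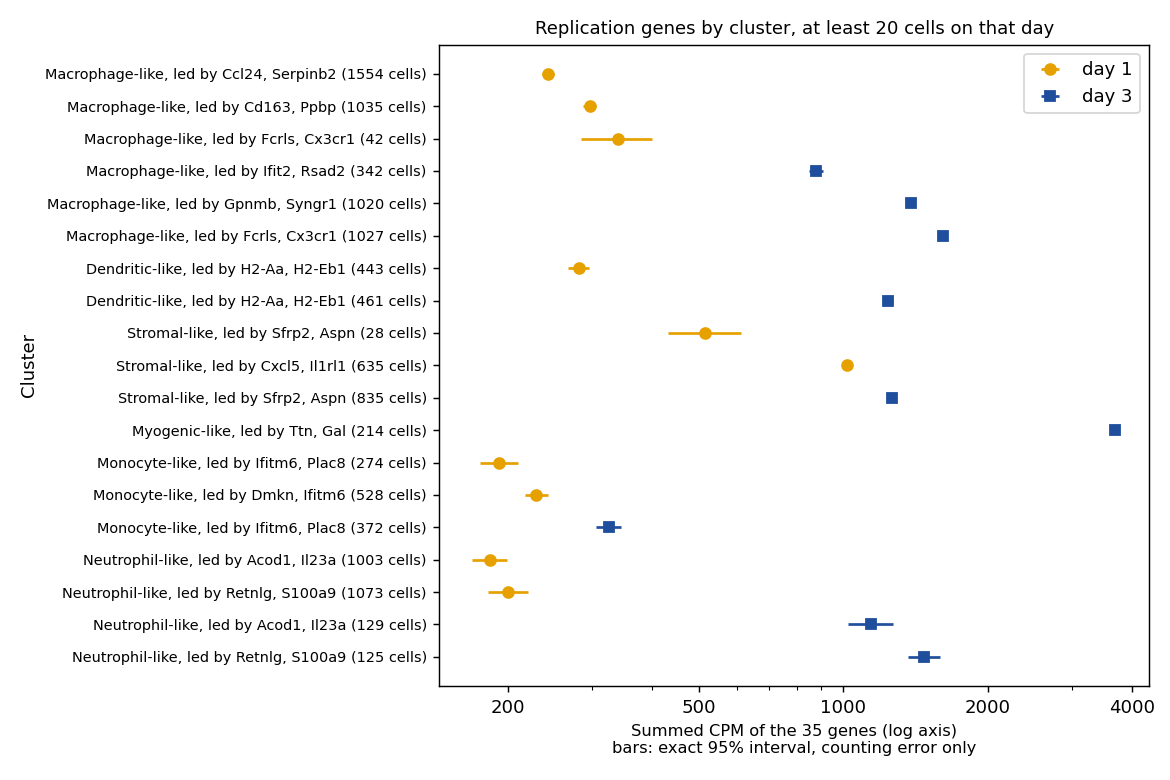
Summed CPM of the 35 genes (logarithmic axis) in each cluster on each day with at least 20 cells; points are values and bars exact 95% intervals. Clusters of macrophage-like cells lie from 243 to 339 CPM on day 1 and from 879 to 1618 CPM on day 3, and the myogenic-like cluster lies at 3676 CPM.

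Dendritic-like cells, 1 cluster on both days led by the MHC class II genes *H2-Aa* and *H2-Eb1*, also had most genes higher on day 3 under the main naming. Of the 35 genes 34 had at least 20 UMIs, 30 were at least 2-fold higher on day 3 and none was 2-fold lower, where 19.2% of 10219 genes were 2-fold higher and 3.93% 2-fold lower. Their median log2 ratio was 2.95, beside 0.32 over all genes. *Pclaf* had 1 UMI on day 1 and 768 on day 3, or 0.177 to 144 CPM, a log2 ratio of 9.08 (CI 7.18 to 14.97). *Rrm2* went from 0.709 to 38.8 CPM, *Dut* from 3.37 to 61.7 CPM, *Mcm5* from 3.01 to 53.1 CPM and *Pola1* from 0.887 to 19.7 CPM. Among the helicase genes 2 had no UMI on day 1, *Mcm10*, which was at least 14.1-fold higher on day 3, and *Orc1*, at least 5.64-fold higher, against a floor of 3 counts over the group. The 4 genes between the limits were *Cdt1*, *Pcna*, *Rfc3* and *Slbp*, and *Pcna* went from 80.3 to 149 CPM. The result depended on how cells were named: with log-normalization, or with each cell named by its own highest marker score, 12 of the genes were at least 2-fold higher and the log2 ratio of the summed level was 0.83 and 0.81 in place of 2.14. Macrophage markers in dendritic-like cells summed to 7293 CPM on day 1 and 6819 CPM on day 3. The 35 genes themselves summed to 266 CPM on day 1 and 1418 CPM on day 3 in macrophage-like cells. A similar marker level on both days therefore does not measure the part of macrophage RNA in the result, which was not tested.

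Monocyte-like cells, clusters led by *Dmkn* and *Ifitm6* (528 cells) and by *Ifitm6* and *Plac8* (274 cells) on day 1 and by *Ifitm6* and *Plac8* on day 3 (372 cells), had few replication UMIs on either day. Of the 22 genes with at least 20 UMIs, 11 were at least 2-fold higher on day 3 and none was 2-fold lower, beside 13.9% and 3.05% of 9434 genes. The count ranged from 5 to 21 with the naming of cells and the limit on UMIs, so that it describes low counts. The genes with the most UMIs were *Pcna*, which went from 57.4 to 94.7 CPM, and *Slbp*, which went from 77.6 to 62.2 CPM, a log2 ratio of -0.32 (CI -0.55 to -0.09). *Pclaf* had 3 UMIs on day 1 and 15 on day 3, and *Ccne1* had 10 and 3. On day 3, within 1 library, 33 of the 35 genes were at least 2-fold higher in macrophage-like than in monocyte-like cells and none was 2-fold lower, beside 18.7% and 8.03% of 12212 genes.

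In stromal-like cells, fibroblasts and related cells that lay down matrix, the genes did not move in 1 direction. Of the 35 genes 8 were at least 2-fold higher on day 3 and 2 at least 2-fold lower, beside 25.8% and 7.44% of 13688 genes, and their median log2 ratio of 0.21 was below that of all genes, 0.34. The genes that rose were *Pclaf*, from 7.66 to 155 CPM, *Tk1*, from 3.01 to 42.1 CPM, *Rrm2*, from 7.498 to 43.0 CPM, *Ccne2*, from 3.85 to 14.3 CPM, *Mcm10*, from 2.75 to 8.15 CPM, *Rrm1*, from 26.8 to 60.9 CPM, *Lig1*, from 25.0 to 51.8 CPM, and *Tyms*, from 25.5 to 51.7 CPM. Of these 8, *Tk1*, *Rrm2*, *Rrm1* and *Tyms* are genes of nucleotide supply, and the summed level of that group went from 157 to 319 CPM. The 2 genes that fell were *Ung*, from 22.1 to 10.2 CPM, a log2 ratio of -1.11 (CI -1.35 to -0.88), and *Mcm3*, from 70.2 to 34.7 CPM, a log2 ratio of -1.02 (CI -1.14 to -0.89).

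Most subunits of the MCM ring were at their higher level on day 1 in stromal-like cells. *Mcm2* went from 47.4 to 24.9 CPM, *Mcm5* from 54.0 to 38.5 CPM, *Mcm6* from 62.0 to 52.2 CPM and *Mcm7* from 43.8 to 34.9 CPM, each with an interval of the ratio below 0, whereas *Mcm4* went from 38.4 to 37.9 CPM, with an interval that holds 0. The summed level of the 13 genes of licensing and helicase went from 380 CPM (CI 371 to 389) to 306 CPM (CI 299 to 313), while that of the 10 genes of the fork went from 303 to 461 CPM. Most of that second difference was *Pclaf*, since *Pcna* was at 126 and 118 CPM, and *Rfc3*, *Rpa2* and *Fen1* had ratios below 0. Over all 35 genes 16 had an interval above 0 and 11 below 0, against 34 and 0 in macrophage-like cells. The share of all genes with such an interval in each type was not counted, so these numbers describe the 35 genes only. By the 2-fold limit 8 were higher and 2 lower in stromal-like cells, beside 25.8% and 7.44% of all genes. Over macrophage-like, monocyte-like, dendritic-like and stromal-like cells, 12 of the 35 genes (34.3%) had an interval above 0 in 1 type and below 0 in another, beside 22.0% of 12065 genes. Macrophage markers in stromal-like cells summed to 1026 CPM on day 1 and 2479 CPM on day 3, and their part in the result was not tested. When the cells with the highest doublet scores were removed, the summed level was 1076 CPM on day 1 and 1254 CPM on day 3.

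**Figure D4:**
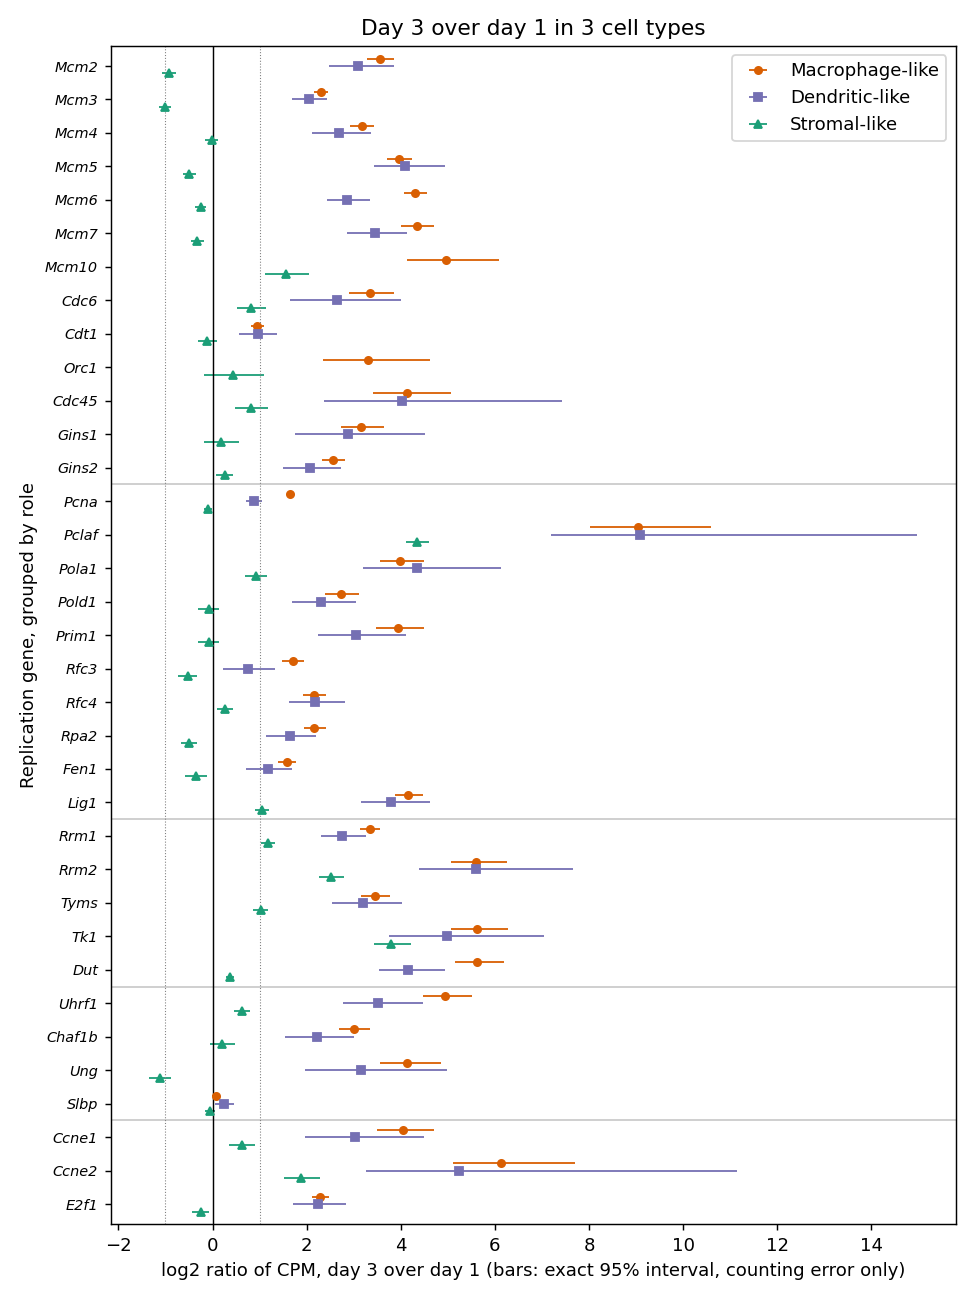
Change of each gene between the days, as log2 of its CPM on day 3 divided by that on day 1, for genes with at least 20 UMIs, in macrophage-like, dendritic-like and stromal-like cells; points are ratios, bars exact 95% intervals, and dotted lines mark 2-fold. Orc1 and Mcm10 are not drawn for dendritic-like cells, which had no UMI of them on day 1, and the stromal-like points lie between -1.11 for Ung and 4.34 for Pclaf, left of the macrophage-like points.

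Within the library of day 1, stromal-like cells stood above macrophage-like cells in nearly all of these genes: 31 of 35 were at least 2-fold higher and none was 2-fold lower, beside 38.9% and 16.9% of 12856 genes. The summed level was 3.79-fold higher. *Dut*, at 93.8 against 1.02 CPM, and *Pclaf*, at 7.66 against 0.185 CPM, had the highest ratios. By day 3 the same comparison gave 1 gene 2-fold higher and 1 gene 2-fold lower, beside 27.5% and 14.3% of 14197 genes. The gene that was higher was *Dut*, with a log2 ratio of stromal-like over macrophage-like cells of 1.26, and the gene that was lower was *Cdt1*, with -1.02. The summed level on day 3 was slightly lower in stromal-like cells, a log2 ratio of -0.16 (CI -0.18 to -0.14), but this order was not stable. With a mitochondrial limit of 15% the ratio was 0.34, at 1284 CPM in stromal-like against 1017 CPM in macrophage-like cells, and 4 genes were 2-fold higher in place of 1. At that limit the *Fcrls*-led cluster (1301 cells of day 3) was left unnamed, so that the macrophage-like value is over other cells. With the other call of cells the ratio was 0.083, at 1298 against 1225 CPM.

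Myogenic-like cells, led by *Ttn*, *Gal* and *Myod1* with all 12 myogenic markers raised, had UMIs of each of the 35 genes. On day 3, 24 of the 35 genes were at least 2-fold higher in them than in macrophage-like cells and none was 2-fold lower, beside 30.2% and 24.6% of 13215 genes. Against stromal-like cells 29 were 2-fold higher and none was 2-fold lower, beside 15.9% and 30.8% of 13633 genes. The ratio was highest for *Rrm2*, at 402 CPM in myogenic-like against 39.7 CPM in macrophage-like and 43.0 CPM in stromal-like cells. *Dut* was at 395 CPM, *Pclaf* at 423 CPM and *Ccne1* at 86.9 CPM. *E2f1*, at 35.6 CPM against 41.2 CPM, was the gene with a level in myogenic-like cells below that in macrophage-like cells, and *Pcna*, at 251 against 226 CPM, differed little. After thinning, *Pclaf* and *Dut* each had a UMI in 69.6% of myogenic-like cells, against 12.6% and 9.50% of macrophage-like cells and 30.4% and 17.4% of the 23 neutrophil-like cells. The myogenic-like cells of day 3 also held the stromal markers at 982 CPM, against 22981 CPM in stromal-like cells, and their median depth of 44172 UMIs was the highest of the named types.

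The make-up of the replication UMIs by role differed between types and days. On day 1 chromatin and repair genes, mostly *Slbp*, held 30.4% of the replication UMIs of macrophage-like cells and 37.5% of those of monocyte-like cells, but 12.9% of those of stromal-like cells. By day 3 this share was 10.2% in macrophage-like cells and still 22.8% in monocyte-like cells. Nucleotide supply went from 4.32% to 15.6% of the replication UMIs in macrophage-like cells and from 15.5% to 25.2% in stromal-like cells, and it was 31.6% in myogenic-like cells of day 3. Licensing and helicase went from 22.2% to 32.0% in macrophage-like cells and the other way, from 37.6% to 24.2%, in stromal-like cells.

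**Figure D5:**
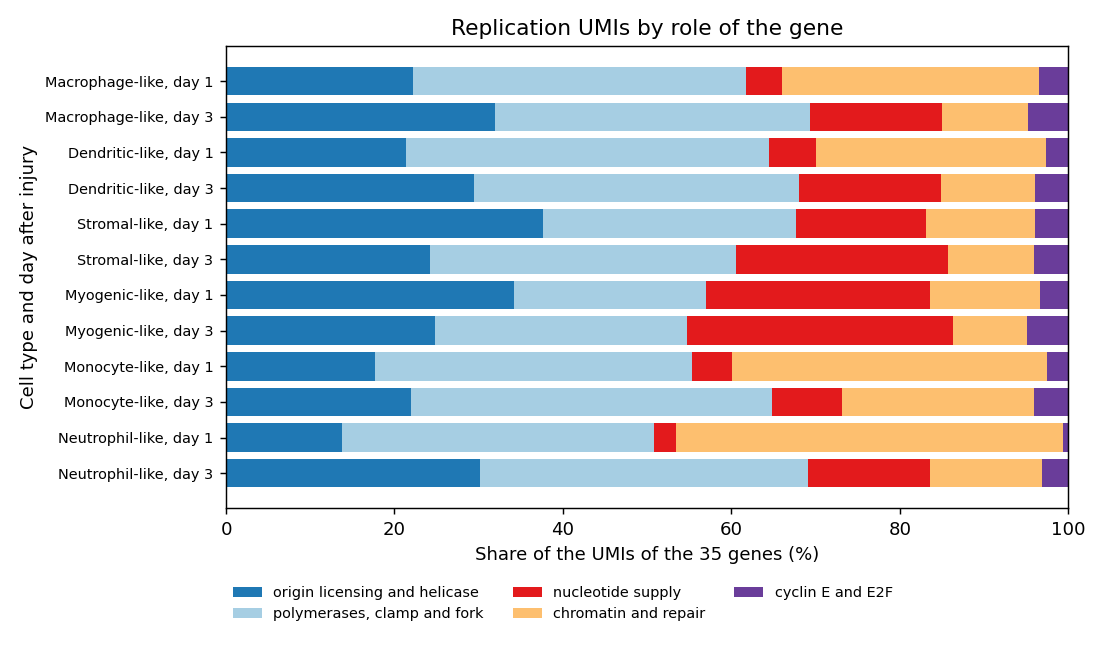
Share of the UMIs of the 35 genes (percent) held by each of the 5 role groups, by cell type and day. The segment of nucleotide supply is widest in myogenic-like cells and grows from 4.32% to 15.6% in macrophage-like cells, and that of licensing and helicase shrinks from 37.6% to 24.2% in stromal-like cells; myogenic-like cells of day 1 are 6 cells.

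Other genes of replication, 51 in number, gave smaller ratios than the 35. In macrophage-like cells 38 of the 51 were at least 2-fold higher on day 3 and none was 2-fold lower, with a median log2 ratio of 1.74, beside the 31.6% and 0.52 of all genes. In dendritic-like cells 29 of 49 were at least 2-fold higher, beside 19.2% of all genes, in stromal-like cells 10 of 51, beside 25.8%, and in monocyte-like cells 12 of 38, beside 13.9%. The highest ratios in macrophage-like cells were those of *E2f7*, a repressor of the E2F family, which had no UMI on day 1 and was at least 44.4-fold higher on day 3, *Dscc1*, of an alternative clamp loader, with 2 and 179 UMIs, and *Clspn*, of the replication checkpoint, from 0.401 to 19.4 CPM. The lowest were *Pole4*, a small subunit of polymerase epsilon, from 99.5 to 73.6 CPM, *Top1*, topoisomerase I, from 196 to 198 CPM, and *Orc4*, from 22.1 to 23.5 CPM. In the neutrophil-like cells, read as the background with the limits given above, 19 of the 21 replication genes with at least 20 UMIs were 2-fold higher on day 3 and 1, *Mcm10*, was 2-fold lower, beside 43.0% and 8.01% of 7942 genes.

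The genes that carry cells into the cycle or hold them back, 13 in number, were read in the same way. In macrophage-like cells 4 of the 13 were at least 2-fold higher on day 3 and 1 was 2-fold lower, beside 31.6% and 5.7% of all genes, and in stromal-like cells 7 were 2-fold higher and none was 2-fold lower, beside 25.8% and 7.44%. In macrophage-like cells *Ccnd1*, cyclin D1, went from 4.72 to 115 CPM, *Myc* from 7.13 to 16.9 CPM and *Cdkn2c*, an inhibitor of the cyclin D kinases, from 4.57 to 22.3 CPM, while *Cdkn1a*, which encodes the inhibitor p21, fell from 658 to 243 CPM. *Cdkn2a*, at 3 and 27 UMIs, was the other gene at least 2-fold higher. The remaining 8, *Ccnd2*, *Ccnd3*, *Cdk4*, *Cdk6*, *Rb1*, *Cdkn1b*, *Cdkn1c* and *Cdkn2d*, had log2 ratios between -0.45 and 0.59. In dendritic-like cells *Ccnd1* and *Cdkn2c* rose, *Ccnd1* from 22.2 to 192 CPM, and *Cdkn1a* fell from 559 to 273 CPM. In stromal-like cells *Ccnd1*, *Ccnd2*, *Cdk4* and *Cdkn1a* were at their higher level on day 1, *Ccnd1* at 154 and 78.7 CPM, with log2 ratios between -0.97 and -0.69. *Ccnd3* was also higher on day 1, at 73.8 and 63.6 CPM, whereas *Myc* was higher on day 3, at 73.0 and 81.2 CPM. The genes that rose, 7 in all, were *Cdk6*, *Rb1* and the inhibitors *Cdkn1b*, *Cdkn1c*, *Cdkn2a*, *Cdkn2c* and *Cdkn2d*. Monocyte-like cells had *Cdkn1a* at 553 CPM on day 1 and 301 CPM on day 3, and *Ccnd1* at 3.13 and 14.0 CPM.

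Cells with at least 5 of the 35 genes were set beside cells of the same type and day with at most 1, both thinned to 3000 UMIs, to see which other genes went with them. In macrophage-like cells of day 3, 493 against 1159 cells, 36 of 48 other replication genes with at least 20 UMIs were at least 2-fold higher in the first, beside 8.37% of 9103 genes. In dendritic-like cells of day 3 it was 16 of 24, beside 7.36% of 5479 genes, in stromal-like cells of day 3 it was 23 of 36, beside 6.26% of 7599, and in stromal-like cells of day 1 it was 11 of 26, beside 3.45% of 6005. None had a log2 ratio, with 0.5 added to each count, of -1 or below in any of these comparisons, and the nearest was *Rrm2b* in macrophage-like cells, at 4.73 against 9.78 CPM (7 and 34 UMIs). The cells with 5 or more had also been deeper before thinning, with medians of 21552 against 13257 UMIs in macrophage-like cells, and the part of depth or of doublets in the result was not tested. In macrophage-like cells of day 3 *Ccnd1* was at 223 against 65.3 CPM, *Cdkn2c* at 35.8 against 10.1 CPM and *Cdkn1a* at 211 against 314 CPM. *Samhd1*, which breaks down the dNTPs that ribonucleotide reductase supplies, was at 133 against 225 CPM, and *Gmnn*, geminin, which blocks a second round of licensing, at 158 against 21.6 CPM; both were picked after their values were seen. In stromal-like cells *Cdkn1c*, the inhibitor p57, was at 11.6 against 63.3 CPM on day 3 and at 3.14 against 22.5 CPM on day 1, from 1 and 19 UMIs. *Cdkn1a* was at 81.8 against 181 CPM on day 1 but at 114 against 84.7 CPM on day 3, with an interval of the ratio that holds 0.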

How the data were processed

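Mononuclear cells of the quadriceps were profiled at day 1 and day 3 after injury, with 1 10x Genomics 3' library per day. The deposited values are raw UMI counts per gene and barcode, made by the authors with Cell Ranger (5.0.0 in the submitters' processing notes, 4 in the matrix header) on mm10, and the tables list every possible barcode. In their own processing the authors regressed out the S score minus the G2M score of each cell, and its mitochondrial content. The same was done here in the clustering from which the cells were named. Levels, ratios and shares were read from UMI counts without this regression. As the study's quality table gives the number of cells, the 7367 and 6640 barcodes with the most UMIs were taken, then those with at least 1000 UMIs, 200 genes and at most 7.5% mitochondrial UMIs.

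Cells of both days were clustered together with SCTransform (3000 variable features, 10 principal components, resolution 0.8) with Seurat 5.3.0 and sctransform 0.4.2 in R 4.3.3, with the markers, the 35 genes and other cell-cycle genes barred from the variable features. A cluster was named by the list with the highest mean log2 ratio of its markers (5 CPM added) over their median level in the main clusters. At least 3 markers had to be raised 1.5-fold, a limit chosen after the clusters were seen. A cluster was left unnamed where another list had more markers among its 10 leading genes, or where it was shallow with no marker of its own list there. The 35 genes, the other lists and the markers were chosen with earlier results of these data known. Scrublet, in scanpy 1.11.5, marked 1 and 0 cells at its automatic limit and thus did not work; doublets were kept, and 363 and 171 cells with the highest scores were left out as an alternative.

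UMIs were summed per type and day with numpy 2.4.6 and pandas 2.3.3, in Python 3.11.15. Intervals are exact (Poisson, Clopper-Pearson or, for ratios, binomial; scipy 1.17.1), at 95%. Log2 ratios had 0.5 added to each count, and a gene at 0 on day 1 was set against a floor of 3 counts over the group. Counts of genes at least 2-fold apart used genes with at least 20 UMIs over the groups compared, and the steps were checked on simulated counts. Cells were thinned at random (seed 1) to 3000 UMIs. Barcodes of at most 100 UMIs gave the profile of free RNA. All 35 genes and all 13 entry and arrest genes are named or counted, and of the 51 other replication genes the 3 highest and 3 lowest ratios in macrophage-like cells. With 1 library per day no test was made. The alternatives were resolution 0.4, 20 components, log-normalization, cell-cycle genes kept, a mitochondrial limit of 15%, another call of cells, naming per cell, subtraction of free RNA, a mean over cells and other limits.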

Additional observations from a re-analysis of the deposited data

Results flagged for a closer look

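For 12 of the 35 genes the days differed in opposite directions in a pair of cell types, with counting intervals on either side of 0, where 22.0% of all genes met the same rule. The difference between the types was not tested, since each day has 1 library. The helicase subunits made up 5 of them. *Mcm2* had a log2 ratio of day 3 over day 1 of 3.56 in macrophage-like and -0.93 in stromal-like cells, *Mcm3* of 2.31 and -1.02, *Mcm6* of 4.30 and -0.25, and *Mcm7* of 4.34 and -0.33. *Mcm5* had 4.10 in dendritic-like and -0.49 in stromal-like cells. At the fork, *Pcna* had 1.64 in macrophage-like and -0.09 in stromal-like cells, *Rfc3* 1.71 and -0.53, *Rpa2* 2.17 and -0.50, and *Fen1* 1.58 and -0.36. *Ung* had 4.14 in macrophage-like and -1.11 in stromal-like cells, and *E2f1* 2.29 and -0.25. *Slbp* had 0.25 in dendritic-like and -0.32 in monocyte-like cells.

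Cells over the mitochondrial limit, which the main analysis left out, also held these transcripts. Their summed level was 357.5 CPM on day 1 (277 cells, median 2349 UMIs) and 1460.5 CPM on day 3 (1804 cells, median 2507 UMIs), beside 452 and 1213 CPM in free RNA.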

How the results depend on the processing

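No log2 ratio of day 3 over day 1 of the summed level changed its sign, but the summed level of stromal-like over macrophage-like cells of day 3 did at a mitochondrial limit of 15% and with the other call of cells, and the share of stromal-like cells was higher on day 1 without thinning. In macrophage-like cells the number of genes at least 2-fold higher on day 3 stayed within 1.5 times of 33 under each alternative, and so did the number in myogenic-like over macrophage-like and stromal-like cells of day 3. Values of the 5 types that left their counting interval, and numbers of genes that changed by over 1.5 times, follow by alternative. In neutrophil-like cells of day 3 a mean over cells gave 639 CPM in place of 1345 CPM. At the mitochondrial limit of 15% the *Fcrls*-led cluster, with 1301 cells of day 3, was left unnamed, so that its macrophage-like values are over other cells. The *Ifit2*-led cluster, the depth of 1000 UMIs and the alternatives of the comparisons between types were chosen after the data were seen. Where a value shifted, the cause was not tested, except that a lower thinning depth or another limit on genes changes the share by its construction.

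At a clustering resolution of 0.4 the summed level was 260.3 CPM in macrophage-like cells of day 1, 181 CPM in monocyte-like cells of day 1, 302 CPM in monocyte-like cells of day 3, 1306 CPM in stromal-like cells of day 3 and 3724 CPM in myogenic-like cells of day 3, the share of cells was 0% in monocyte-like cells of day 3, the log2 ratio of the summed level was -0.11 in stromal-like over macrophage-like cells of day 3, 0.74 in monocyte-like cells and 0.37 in stromal-like cells, and the number of genes at least 2-fold higher was 6 in monocyte-like cells. With 20 principal components the summed level was 1447 CPM in macrophage-like cells of day 3, 188 CPM in monocyte-like cells of day 1, 359.8 CPM in monocyte-like cells of day 3 and 1286 CPM in stromal-like cells of day 3, and the log2 ratio of the summed level was 2.47 in macrophage-like cells and 0.94 in monocyte-like cells. With log-normalization the summed level was 279.7 CPM in macrophage-like cells of day 1, 1473 CPM in macrophage-like cells of day 3, 230.2 CPM in monocyte-like cells of day 1 and 515 CPM in dendritic-like cells of day 3, the share of cells was 22.6% in macrophage-like cells of day 3 and 7.87% in dendritic-like cells of day 3, the log2 ratio of the summed level was -0.22 in stromal-like over macrophage-like cells of day 3, 1.84 in stromal-like over macrophage-like cells of day 1 and 0.83 in dendritic-like cells, and the number of genes at least 2-fold higher was 12 in dendritic-like cells. With cell-cycle genes among the variable features the summed level was 1142 CPM in dendritic-like cells of day 3, 1294 CPM in stromal-like cells of day 3 and 3725 CPM in myogenic-like cells of day 3, and the log2 ratio of the summed level was -0.14 in stromal-like over macrophage-like cells of day 3 and 2.03 in dendritic-like cells. With a mitochondrial limit of 15% the summed level was 1017 CPM in macrophage-like cells of day 3, 299 CPM in monocyte-like cells of day 3, 1181 CPM in dendritic-like cells of day 3, 1284 CPM in stromal-like cells of day 3 and 3568 CPM in myogenic-like cells of day 3, the share of cells was 12.6% in macrophage-like cells of day 3, 0% in monocyte-like cells of day 3 and 80.7% in myogenic-like cells of day 3, the log2 ratio of the summed level was 0.34 in stromal-like over macrophage-like cells of day 3, 1.96 in macrophage-like cells and 0.45 in monocyte-like cells, and the number of genes at least 2-fold higher was 4 in stromal-like over macrophage-like cells of day 3 and 6 in monocyte-like cells. Without the highest doublet scores the summed level was 1076 CPM in stromal-like cells of day 1 and 3768 CPM in myogenic-like cells of day 3, and the log2 ratio of the summed level was 2.02 in stromal-like over macrophage-like cells of day 1, 0.45 in monocyte-like cells and 0.22 in stromal-like cells. With the other call of cells the summed level was 273 CPM in macrophage-like cells of day 1, 1225 CPM in macrophage-like cells of day 3, 1292 CPM in dendritic-like cells of day 3, 1298 CPM in stromal-like cells of day 3 and 3734 CPM in myogenic-like cells of day 3, the share of cells was 0% in macrophage-like cells of day 1 and 16.6% in macrophage-like cells of day 3, and the log2 ratio of the summed level was 0.083 in stromal-like over macrophage-like cells of day 3, 1.88 in stromal-like over macrophage-like cells of day 1, 2.17 in macrophage-like cells and 0.37 in stromal-like cells. With each cell named by its own highest marker score the summed level was 297 CPM in macrophage-like cells of day 1, 1489.9 CPM in macrophage-like cells of day 3, 233 CPM in monocyte-like cells of day 1, 406 CPM in monocyte-like cells of day 3, 669.5 CPM in dendritic-like cells of day 1, 1170.2 CPM in dendritic-like cells of day 3, 1031 CPM in stromal-like cells of day 1, 1195 CPM in stromal-like cells of day 3 and 3604 CPM in myogenic-like cells of day 3, the share of cells was 23.7% in macrophage-like cells of day 3, 1.64% in monocyte-like cells of day 3 and 6.71% in dendritic-like cells of day 1, the log2 ratio of the summed level was -0.32 in stromal-like over macrophage-like cells of day 3, 1.80 in stromal-like over macrophage-like cells of day 1, 2.33 in macrophage-like cells, 0.80 in monocyte-like cells, 0.81 in dendritic-like cells and 0.21 in stromal-like cells, and the number of genes at least 2-fold higher was 21 in monocyte-like cells and 12 in dendritic-like cells. Without the *Ifit2*-led cluster the summed level was 1474 CPM in macrophage-like cells of day 3, the share of cells was 22.6% in macrophage-like cells of day 3, and the log2 ratio of the summed level was -0.22 in stromal-like over macrophage-like cells of day 3 and 2.47 in macrophage-like cells. As a mean over the CPM of each cell the summed level was 1155 CPM in macrophage-like cells of day 3, 994 CPM in dendritic-like cells of day 3, 888 CPM in stromal-like cells of day 1, 1134 CPM in stromal-like cells of day 3 and 3614 CPM in myogenic-like cells of day 3, and the log2 ratio of the summed level was -0.026 in stromal-like over macrophage-like cells of day 3, 1.73 in stromal-like over macrophage-like cells of day 1, 2.11 in macrophage-like cells and 1.78 in dendritic-like cells. With free RNA subtracted the summed level was 1047 CPM in stromal-like cells of day 1, and the log2 ratio of the summed level was 1.996 in stromal-like over macrophage-like cells of day 1 and 0.28 in stromal-like cells. With cells thinned to 2000 UMIs the share of cells was 14.9% in macrophage-like cells of day 3, 10.1% in dendritic-like cells of day 3, 8.41% in stromal-like cells of day 1, 13.9% in stromal-like cells of day 3 and 65.9% in myogenic-like cells of day 3. Without thinning the share of cells was 8.08% in macrophage-like cells of day 1, 57.1% in macrophage-like cells of day 3, 2.37% in monocyte-like cells of day 1, 6.17% in monocyte-like cells of day 3, 11.1% in dendritic-like cells of day 1, 36.0% in dendritic-like cells of day 3, 81.0% in stromal-like cells of day 1, 75.7% in stromal-like cells of day 3 and 98.6% in myogenic-like cells of day 3. At a limit of at least 3 genes the share of cells was 2.79% in macrophage-like cells of day 1, 33.8% in macrophage-like cells of day 3, 1.2% in monocyte-like cells of day 1, 4.51% in monocyte-like cells of day 3, 4.40% in dendritic-like cells of day 1, 25.2% in dendritic-like cells of day 3, 36.5% in stromal-like cells of day 1, 40.9% in stromal-like cells of day 3 and 95.3% in myogenic-like cells of day 3. At a limit of at least 8 genes the share of cells was 0.0387% in macrophage-like cells of day 1, 10.8% in macrophage-like cells of day 3, 0% in monocyte-like cells of day 3, 9.05% in dendritic-like cells of day 3, 5.54% in stromal-like cells of day 1, 8.32% in stromal-like cells of day 3 and 56.1% in myogenic-like cells of day 3. With cells thinned to 1000 UMIs and a limit of 3 genes the share of cells was 14.1% in macrophage-like cells of day 3, 11.7% in dendritic-like cells of day 3, 8.45% in stromal-like cells of day 1, 14.5% in stromal-like cells of day 3 and 53.7% in myogenic-like cells of day 3. Without a minimum of UMIs the number of genes at least 2-fold higher was 19 in monocyte-like cells. With at least 50 UMIs the number of genes at least 2-fold higher was 5 in monocyte-like cells. At a fold of 1.5 the number of genes at least 1.5-fold higher was 13 in stromal-like cells.

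No paired analysis was possible because each day has 1 library and no result comes from a test. The limits are 1 library per day, a barcode list and clusters that differ with the day, and few UMIs of these genes in monocyte-like cells. Intervals cover counting error only, and 1782 of 2076 and 231 of 254 neutrophil-like cells were too shallow to thin.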

Other observations

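A small cluster led by *Hbb-bs* and *Cldn5*, with endothelial markers raised and markers of red cells second, held the 35 genes at 462 CPM (CI 417 to 511, 85 cells) on day 1 and 1272 CPM (CI 1162 to 1389, 62 cells) on day 3. Its median depths were 6382 and 4124 UMIs. After thinning, 1 of 59 cells on day 1 and 6 of 40 cells on day 3 had at least 5 of the genes. *Pclaf* had no UMI in it on day 1 and was at 64.5 CPM on day 3.

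*Mcm10*, at 0.309 CPM in macrophage-like cells of day 1, was at 13.8 CPM (71 UMIs) in neutrophil-like cells of that day, a gene singled out after its values were seen. On day 3 it had 3 UMIs in neutrophil-like cells. The helicase subunits *Mcm2* to *Mcm7* had between 1 and 10 UMIs in neutrophil-like cells of day 1.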
